A study of Mus musculus with 6 samples.

Results

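The 43 genes described here carry out glucose uptake, glycolysis, lactate handling, pyruvate oxidation and glycogen metabolism in skeletal muscle. They were taken as a list of gene symbols that names these pathways and includes genes of the muscle clock's known output. The rule applies no threshold to a measured value, but the list was drawn up with earlier results of these data known. All 43 symbols were found among the 55401 gene identifiers of the count table, and all 43 passed the filter on low counts that left 17222 genes for testing.

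RNA was sequenced from 6 samples of the tibialis anterior (TA), a muscle of the lower leg, of C57BL/6 mice with the genotype HSA-MCM-Bmal1-/-, in which a tamoxifen-inducible Cre driven by the human skeletal actin promoter deletes the clock gene Bmal1 in skeletal muscle fibres. All samples share this deletion, which was induced at 12 to 16 weeks of age with 2 mg of tamoxifen daily over 5 days, so no clock-intact muscle was compared. The adeno-associated virus (AAV) was injected into the TA 4 weeks after recombination and muscles were taken after a further 4 weeks, with 3 samples given AAV-GFP, a vector for green fluorescent protein, and 3 given AAV-RBM20, a vector for the splicing regulator RBM20. The comparison asks what the TA transcriptome of the Bmal1 knockout looks like once Rbm20 is supplied from a vector. The study's methods describe a CMV promoter, active in many cell types, driving an HA-tagged mouse Rbm20 cDNA, and a higher dose of the RBM20 vector than of the GFP vector, so the transgene and the vector dose cannot be told apart. The labels do not say that the samples came from separate animals, and p-values measure only the spread between these samples. In whole muscle, fewer cells of a type and less RNA per cell cannot be told apart.

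Glucose enters a muscle fibre through the transporters GLUT4 (Slc2a4) and GLUT1 (Slc2a1), is trapped as glucose 6-phosphate by hexokinase, and is then either stored as glycogen or broken down to pyruvate. Pyruvate is reduced to lactate or enters the mitochondria through the pyruvate dehydrogenase complex, whose activity the Pdk kinases hold back and the Pdp phosphatases release. The TA of the mouse is a fast, glycolytic muscle that expresses muscle isozymes of most glycolytic steps beside low levels of the isozymes of other tissues. The muscle clock is known to regulate several genes of these pathways.

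BMAL1 and its partner CLOCK bind the E-box, the letters CACGTG, which read the same on both strands. The E-box was searched in RefSeq promoter windows (GRCm38.p6) that run from 250 bases before to 50 bases after each annotated start. Of the 41 members with such a window, 8 held the motif in at least 1 of their windows (19.5%), against 1265 of 11123 tested genes (11.4%). The 30-base runs below show where the motif lies in the promoter windows of members whose levels are described further on. They are written 5′ to 3′ on the strand of the gene with the E-box in capitals. Distances count from the annotated RefSeq start as base 0, which can differ from the start implied by the gene intervals given further on.
Fbp2, chr13:62858425-62858454, minus strand, E-box at -42 to -37: ggctatctgagtCACGTGgggtggggttca
Ppp1r3c, chr19:36736691-36736720, minus strand, E-box at -104 to -99: gagggaccggttCACGTGatctggctttga
Pfkfb3, chr2:11502126-11502155, minus strand, E-box at -53 to -48: cacccttctctcCACGTGaaagggggctgg
Pfkm, chr15:98092441-98092470, plus strand, E-box at -136 to -131: aattaagtatgcCACGTGaagtaagtaatt
Ldha, chr7:46845647-46845676, plus strand, E-box at -145 to -140: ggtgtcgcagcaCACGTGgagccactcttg
Ldha, chr7:46845744-46845773, plus strand, E-box at -48 to -43: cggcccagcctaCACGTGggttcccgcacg
Pdk2, chr11:95041480-95041509, minus strand, E-box at -126 to -121: ctcgaggagagcCACGTGtcgaagcgcaag
Slc16a1, chr3:104638452-104638481, plus strand, E-box at -200 to -195: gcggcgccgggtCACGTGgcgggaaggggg
The motif of Gyg, the eighth member, starts 8 bases after the annotated start. No window was given for Pdp1 and Slc2a4. A match is a description of these letters and not evidence of binding. The share of members with the motif was not tested against that of all genes, and Bmal1 was deleted in all samples compared.

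Total counts ranged from 41400132 to 54226618 per library, and 3.80% to 5.04% of each library's counts fell on the 43 members. Rbm20 checked the labels, with 164 to 170 CPM (read counts scaled to a common library size after TMM normalisation) in the AAV-GFP libraries and 406 to 545 CPM in the AAV-RBM20 libraries, a log2 fold change of 1.54 ± 0.15 (SE; edgeR quasi-likelihood test, adjusted p = 0.121; 0.0107 with the replicate block, in which each replicate number is a term of the fit). The libraries numbered 3 stood apart in both groups. Transcripts of Ttn, the titin gene, took 4.48% of the counts of AAV-GFP replicate 3 and 9.05% of those of AAV-RBM20 replicate 3, against 16.9% to 17.8% in the other 4 libraries, and mitochondrially encoded transcripts took 12.5% and 11.4% against 6.41% to 7.67%. AAV-GFP replicate 3 was also low in Myh2, the myosin of type IIa fibres, with 31.6 CPM against 416 to 792 CPM in the other 5 libraries.

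No member passed an adjusted p of 0.05 between AAV-GFP and AAV-RBM20, and the smallest p-values belonged to a higher level of Pfkp and lower levels of Fbp2 and Ppp1r3c in AAV-RBM20. Pfkp makes the platelet-type phosphofructokinase, Fbp2 the muscle fructose bisphosphatase that works against phosphofructokinase, and Ppp1r3c a subunit that brings protein phosphatase to glycogen. These 3 were the members at an unadjusted p under 0.05. Of all 17222 genes, 0% passed the adjusted p, 4.08% were higher and 3.82% were lower at the unadjusted p in this test, against 1 (2.33%) and 2 (4.65%) of the 43 members, so the members' shares lay near those of all genes. DESeq2 without a block also placed no member past the adjusted p, which 75 of 17222 genes passed. It placed 6 members at an unadjusted p under 0.05, beside 1490 of all 17222 genes.

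Across the list, 16 members were higher and 27 lower in AAV-RBM20, with a median log2 fold change of -0.06 against 0.01 over all genes tested, of which 51.3% were higher. This balance was not stable. It was 21 higher and 22 lower with upper quartile factors and with the CPM filter, 22 and 21 without AAV-GFP replicate 3, and 23 and 20 without AAV-RBM20 replicate 3 or without both libraries numbered 3. The members' fold changes were about as large as those of other genes, with a median absolute log2 fold change of 0.207 against 0.208, and they were measured with less error, with a median SE of 0.172 against 0.228. They ran from -0.97 for Fbp2 to 0.54 for Tbc1d4. In 36 of the 43 members the highest and lowest of the 6 libraries lay less than 2-fold apart, and the narrowest of these ranges was the 1.17-fold range of Dlat, a core enzyme of the pyruvate dehydrogenase complex. The widest was the 3.69-fold range of Pfkfb3, which makes the activator of phosphofructokinase. In 24 members the sign of the fold change was the same under all 20 alternative settings, and in the other 19 it turned under at least 1.

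**Figure D1:**
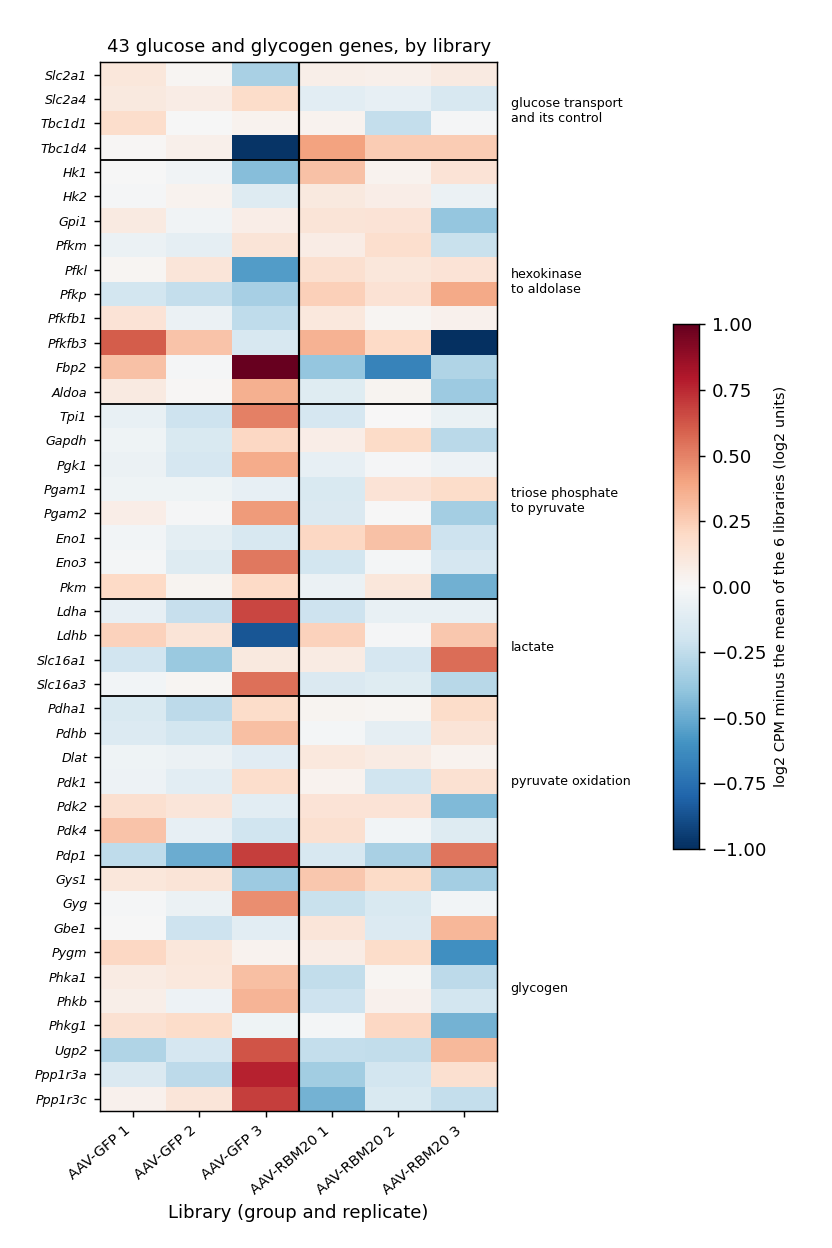
Heat map of the 43 members (rows, grouped by role) in the 6 libraries (columns). The colour is the log2 CPM of a library minus the mean of the 6 libraries, and the columns of the 2 libraries numbered 3 differ from the other 4 in many rows, as in the low Pfkfb3 of AAV-RBM20 replicate 3 and the low Ldhb of AAV-GFP replicate 3.

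With the replicate block, 11 members in place of 3 had an unadjusted p under 0.05, with 4 higher (Tbc1d4, Hk1, Pfkp and Slc16a1) and 7 lower (Slc2a4, Pfkfb3, Fbp2, Slc16a3, Gyg, Phka1 and Ppp1r3c). In that fit 8.92% of all genes were higher and 9.92% lower at the unadjusted p, and 0.145% passed the adjusted p, none of them a member. DESeq2 with the same block placed Fbp2 and Ppp1r3c past the adjusted p, both lower, where 1.65% of all genes were lower. The block combined with the removal of gene length and GC trends left Fbp2 alone, where 0.576% of all genes were lower. Without both libraries numbered 3, edgeR called Fbp2 lower and Eno1 higher, beside 4% of all genes in either direction.

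In 9 members the 3 libraries of each group did not overlap. Tbc1d4, Hk1, Pfkp and Dlat were higher in every AAV-RBM20 library than in any AAV-GFP library, where 7.71% of all genes tested did the same, and Slc2a4, Fbp2, Slc16a3, Phka1 and Ppp1r3c were lower, where 9.04% did. The members' shares, 9.30% and 11.6%, were close to these. The values of Tbc1d4, Slc2a4, Hk1, Dlat, Slc16a3 and Phka1 are given in full below because of this separation, that is, they were chosen after their values were seen.

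**Figure D2:**
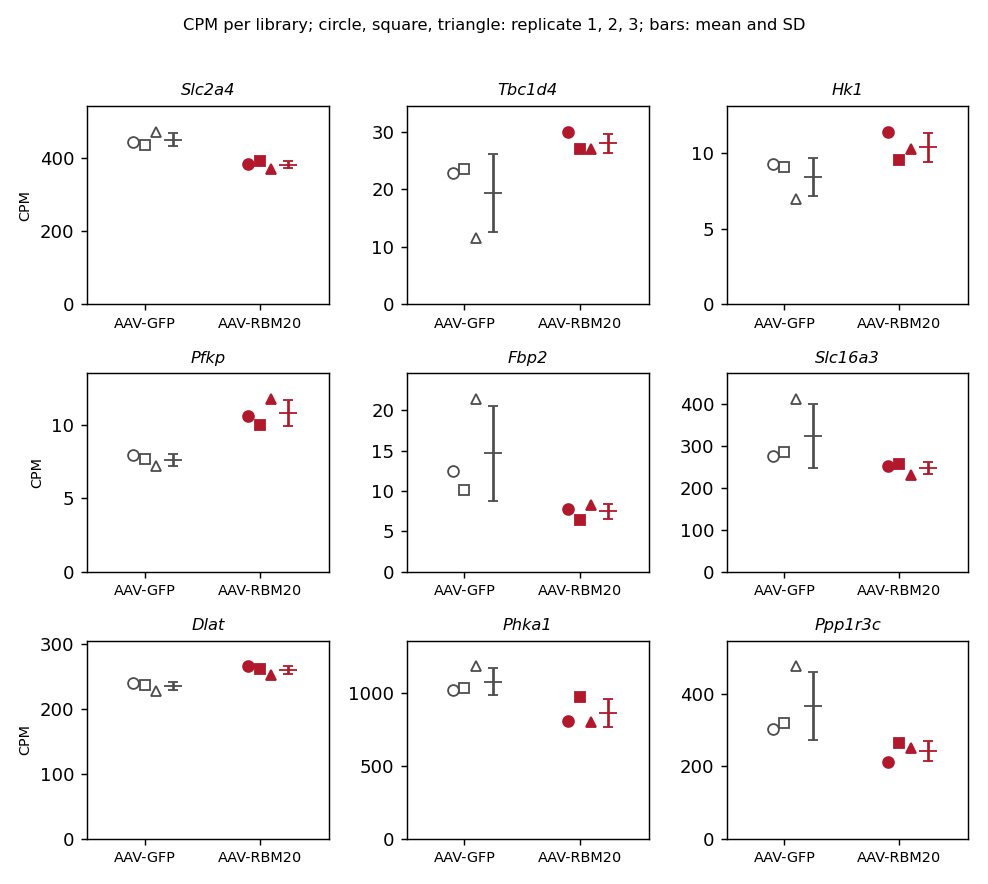
CPM of the 9 members whose groups did not overlap, with 1 symbol per library (circle, square and triangle for replicates 1, 2 and 3) and the mean and SD of each group (n = 3). AAV-GFP replicate 3 lay farthest from the AAV-RBM20 libraries in all 9 panels, and far from the other AAV-GFP libraries in Tbc1d4, Fbp2, Slc16a3 and Ppp1r3c.

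Glucose transport was represented by 4 members, of which 2 were higher and 2 lower (median log2 fold change -0.01). Slc2a4, the insulin-responsive transporter of muscle, had 442, 436 and 470 CPM in AAV-GFP replicates 1, 2 and 3 and 384, 391 and 370 CPM in AAV-RBM20. Every AAV-RBM20 library lay below every AAV-GFP library, and the spread within each group was small. The means were 450 ± 18.1 and 382 ± 10.5 CPM (SD, n = 3), with a log2 fold change of -0.24 ± 0.12 (SE, 95% interval -0.51 to 0.04; edgeR, adjusted p = 0.654). Tbc1d4 encodes AS160, the insulin-regulated brake on GLUT4 vesicles. It had 22.9, 23.5 and 11.5 CPM in AAV-GFP and 29.95, 27.0 and 27.0 CPM in AAV-RBM20. The separation held in all 6 libraries, and AAV-GFP replicate 3 was far below the rest. The log2 fold change was 0.54 ± 0.25 (SE; edgeR, adjusted p = 0.641), and it was 0.27 without AAV-GFP replicate 3. The groups overlapped for the related Tbc1d1 (log2 fold change -0.14) and for the basal transporter Slc2a1 (log2 fold change 0.12). The fold change of Slc2a1 turned its sign in 2 settings.

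From hexokinase to aldolase, 6 of 10 members were higher and 4 lower, with a median log2 fold change of 0.04. Pfkp, at chr13:6579768-6648777 on the minus strand (GRCm38), had 7.95, 7.64 and 7.16 CPM in AAV-GFP and 10.6, 9.98 and 11.7 CPM in AAV-RBM20. All AAV-RBM20 libraries lay above all AAV-GFP libraries, with a gap wider than the range within either group. The log2 fold change was 0.51 ± 0.13 (SE, 95% interval 0.20 to 0.82; edgeR, p = 0.00537, adjusted p = 0.618), and the exact two-sided permutation test gave p = 0.1, the smallest that 3 against 3 libraries allow. Groups of 3 libraries that do not overlap always give this permutation p, so it adds nothing to the separation. The log2 fold change stayed between 0.40 and 0.56 in the alternatives, where the adjusted p ran from 0.0757 to 0.999. Pfkp overlaps Pitrm1 on the opposite strand, and since the strand setting of the counting was not given its count is uncertain to that extent.

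Fbp2, at chr13:62836877-62858422 on the minus strand, showed the largest fold change of the list. It had 12.5, 10.1 and 21.4 CPM in AAV-GFP and 7.77, 6.42 and 8.26 CPM in AAV-RBM20. The groups did not overlap, and AAV-GFP replicate 3 was high, well above the other AAV-GFP libraries. The log2 fold change was -0.97 ± 0.27 (SE, 95% interval -1.60 to -0.34; edgeR, p = 0.00767, adjusted p = 0.618), and the exact permutation test gave p = 0.1, its smallest value. It was -0.59 without AAV-GFP replicate 3 and -0.66 without both libraries numbered 3, where the adjusted p was 0.0309. With the replicate block the adjusted p was 0.0811 in edgeR and 6.66e-04 in DESeq2, and over all alternatives it ran from 6.66e-04 to 0.999. The E-box printed above lies 42 bases before the RefSeq start of its promoter window, which differs from the start implied by the GENCODE interval of this paragraph.

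Hk1, the hexokinase of most tissues, had 9.22, 9.03 and 6.92 CPM in AAV-GFP and 11.3, 9.48 and 10.2 CPM in AAV-RBM20. The groups lay apart by a narrow gap, with AAV-GFP replicate 3 lowest. Its log2 fold change was 0.30 ± 0.16 (SE; edgeR, adjusted p = 0.657), and its antisense gene Hk1os overlaps it. The main muscle genes of these steps differed by little. Hk2 had a log2 fold change of 0.07, Pfkm, the muscle phosphofructokinase, 0.02 and Gpi1, which converts glucose 6-phosphate to fructose 6-phosphate, -0.06, and their groups overlapped. Aldoa, the muscle aldolase, had a log2 fold change of -0.30 ± 0.19 (SE). Pfkfb3 was low in AAV-RBM20 replicate 3, with 155 CPM against 336 to 571 CPM in the other 5 libraries, and its log2 fold change of -0.36 became 0.01 without that library. The groups of Pfkfb1, the liver and muscle form of the same enzyme, overlapped as well (log2 fold change 0.10).

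**Figure D3:**
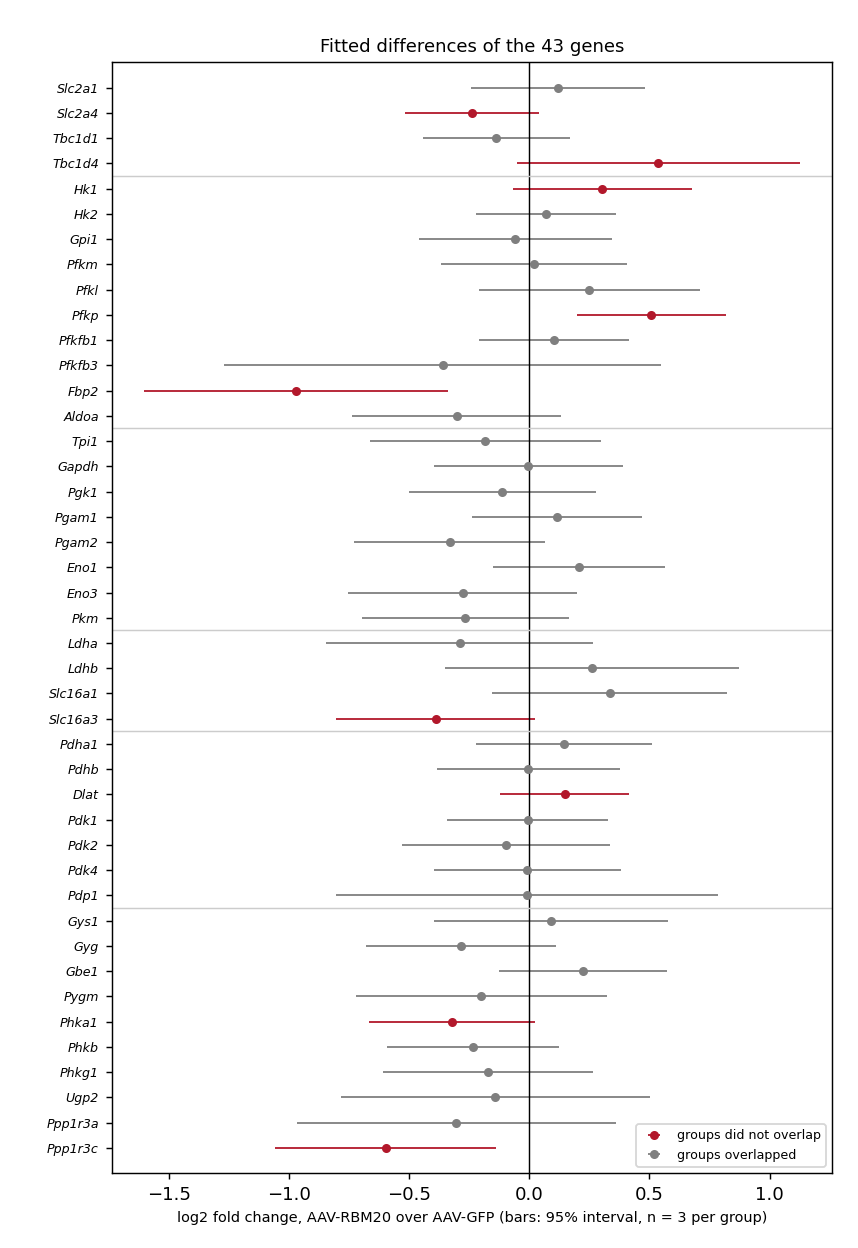
Log2 fold change of AAV-RBM20 over AAV-GFP for the 43 members (edgeR, points) with 95% intervals (bars), grouped by role, with 0 marked by a line. Only the intervals of Pfkp, Fbp2 and Ppp1r3c lie wholly on one side of 0, and no adjusted p was under 0.05.

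From triose phosphate to pyruvate, 2 of 8 members were higher and 6 lower (median -0.15), and the groups of all 8 overlapped. This balance rested on AAV-GFP replicate 3, since without it 5 of 8 were higher and 3 lower (median 0.07), and the same counts were found without both libraries numbered 3 (median 0.06). The lower fold changes ran from -0.33 for Pgam2, the muscle phosphoglycerate mutase, to -0.003 for Gapdh, with Eno3, the muscle enolase, at -0.28 (-0.05 without AAV-GFP replicate 3) and Pkm, pyruvate kinase, at -0.27. The 2 higher members were Eno1 (0.21) and Pgam1 (0.12), the enolase and the mutase of most other tissues. Eno1 had 62.6, 59.6 and 57.3 CPM in AAV-GFP and 73.7, 78.4 and 55.3 CPM in AAV-RBM20. AAV-RBM20 replicate 3 was the lowest of all 6 libraries, so the groups overlapped through that library alone. Without both libraries numbered 3 the log2 fold change of Eno1 was 0.32 (edgeR, adjusted p = 0.0236). Eno3 and Tpi1 were highest in AAV-GFP replicate 3, with 5622 CPM of Eno3 against 3432 to 3856 CPM in the other 5 libraries and 1942 CPM of Tpi1 against 1182 to 1372 CPM. Gapdh has many processed copies in the genome, which makes its count uncertain.

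Lactate production and transport held 4 members, 2 higher and 2 lower (median -0.01). Slc16a3 encodes MCT4, which exports lactate from glycolytic fibres. It had 275, 284 and 410 CPM in AAV-GFP and 253, 256 and 230 CPM in AAV-RBM20. The groups did not overlap, and AAV-GFP replicate 3 alone was far from the rest. The log2 fold change was -0.39 ± 0.18 (SE; edgeR, adjusted p = 0.641), and it was -0.18 without AAV-GFP replicate 3. Slc16a1 encodes MCT1, the transporter that oxidative fibres use for lactate uptake, and it was higher in AAV-RBM20 in all 3 same-numbered pairs with overlapping groups (log2 fold change 0.33). Ldha and Ldhb, the muscle and heart subunits of lactate dehydrogenase, had log2 fold changes of -0.29 and 0.26, and both rested on AAV-GFP replicate 3. That library had 2417 CPM of Ldha against 1301 to 1450 CPM in the other 5, and 36.2 CPM of Ldhb against 65.0 to 78.9 CPM. The signs of both fold changes turned in 2 settings each.

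Pyruvate oxidation showed the smallest differences, with 2 of 7 members higher and 5 lower, a median of -0.01 and fold changes between -0.10 and 0.15. With 4 of the 7 at -0.01 or nearer to 0, these signs turned readily, and 6 of 7 were higher with upper quartile factors, with the CPM filter and without both libraries numbered 3. Dlat had 239, 237 and 228 CPM in AAV-GFP and 265, 262 and 252 CPM in AAV-RBM20. Every AAV-RBM20 library was higher, by a small margin, and the log2 fold change was 0.15 ± 0.12 (SE, 95% interval -0.12 to 0.41; edgeR, adjusted p = 0.722). Pdha1 and Pdhb, the subunits of the first enzyme of the complex, had log2 fold changes of 0.14 and -0.003. The log2 fold change was -0.01 for the kinase Pdk1, -0.10 for Pdk2, -0.01 for Pdk4 and -0.01 for the phosphatase Pdp1, all with overlapping groups. Pdk4, which rises in fasted muscle, ranged from 412 to 577 CPM in AAV-GFP and from 435 to 530 CPM in AAV-RBM20. These intervals still leave room for differences, since that of Pdp1 ran from -0.80 to 0.79 and that of Pdk4 from -0.40 to 0.38.

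Glycogen metabolism held 10 members, of which 8 were lower and 2 higher (median log2 fold change -0.22). Without both libraries numbered 3 the counts were again 8 and 2, with a median of -0.06. They were 7 lower and 3 higher without AAV-GFP replicate 3 and 6 and 4 without AAV-RBM20 replicate 3. Without AAV-RBM20 replicate 1 they were 9 and 1. Ppp1r3c, at chr19:36731731-36736653 on the minus strand, had 304, 320 and 476 CPM in AAV-GFP and 213, 265 and 250 CPM in AAV-RBM20. All AAV-RBM20 libraries lay below all AAV-GFP libraries, with AAV-GFP replicate 3 the highest. The log2 fold change was -0.60 ± 0.20 (SE, 95% interval -1.06 to -0.14; edgeR, p = 0.0174, adjusted p = 0.618), with an exact permutation p of 0.1, the smallest possible. It was -0.37 without AAV-GFP replicate 3. The adjusted p was 0.123 with the replicate block in edgeR and 0.0033 with it in DESeq2, within a range of 0.0033 to 0.999 over the alternatives. Its E-box lies 104 bases before the RefSeq start of the promoter window. That start differs from the one implied by the interval given here, which came from GENCODE.

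Phka1, the muscle regulatory subunit of phosphorylase kinase, had 1015, 1033 and 1179 CPM in AAV-GFP and 809, 973 and 802 CPM in AAV-RBM20. The groups lay apart, with AAV-RBM20 replicate 2 close to the AAV-GFP libraries. Its log2 fold change was -0.32 ± 0.15 (SE, 95% interval -0.66 to 0.02; edgeR, adjusted p = 0.641). The other subunits, Phkb and the catalytic Phkg1, had log2 fold changes of -0.24 and -0.17 with overlapping groups. Pygm, the muscle glycogen phosphorylase, was low in AAV-RBM20 replicate 3, with 3658 CPM against 5728 to 6465 CPM in the other 5 libraries. Of the genes that build glycogen, Gyg, the primer glycogenin, and Ugp2, which makes UDP-glucose, had log2 fold changes of -0.28 and -0.14, while Gys1, the muscle glycogen synthase, had 0.09 and Gbe1, the branching enzyme, 0.22. Ppp1r3a, the other glycogen-targeting subunit of the list, had 1499 CPM in AAV-GFP replicate 3 against 694 to 986 CPM in the other 5 libraries and a log2 fold change of -0.30 ± 0.29 (SE).

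Levels of different genes were compared as CPM per kb of merged exon, averaged over the 6 libraries. Aldoa was highest at 3938, followed by Eno3 at 2282, Pygm at 1766, Pgam2 at 1115 and Pfkm at 954. Aldoa ranged from 3922 to 4984 CPM per kb in AAV-GFP and from 3033 to 3964 in AAV-RBM20, and in every library it was the highest of the list. Its share of all member counts was 28.4% to 29.1% in AAV-GFP and 26.4% to 27.5% in AAV-RBM20. These shares did not overlap, although the groups of Aldoa overlapped in CPM. The share was not computed for other members, so it is given as a description only. Eno3 was second in every library, from 1974 to 3233 CPM per kb, although its range met that of Pygm. Pygm, from 1137 to 2009, and Pgam2, from 870 to 1479, came next, and Pfkm ranged from 815 to 1069, so the range of Pgam2 overlapped those of Pygm and Pfkm, which did not overlap each other. Of the 43 members, 14 share a stretch with another annotated gene, 2 of them on their own strand (Pfkm with Gm26513 and Pkm with Gm49759) and 13 on the opposite strand, among them Aldoa, Pfkm, Gapdh, Tpi1, Gpi1, Pdha1, Gys1, Phkg1, Ugp2, Pfkfb1 and Slc2a1. The counts of these 14, and so their levels and ratios, are uncertain to that extent. At the other end, Pfkp, Pfkl and Hk1 averaged 0.685, 0.915 and 1.10 CPM per kb.

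Ratios between isozymes within a library do not depend on how libraries were scaled. The median over the 6 libraries of the ratio per length was 60.6 for Hk2 over Hk1, 992 for Pfkm over Pfkl, 1486 for Pfkm over Pfkp, 357 for Pgam2 over Pgam1 and 188 for Eno3 over Eno1. The muscle isozyme was thus the main transcript at each of these steps in both groups. Slc2a4 exceeded Slc2a1 by a median of 51.7-fold, and Ldha exceeded Ldhb by 8.82-fold. Among the kinases, Pdk4 and Pdk2 were near each other with a ratio of 1.05, and Pdk4 exceeded Pdk1 by 13.7-fold. With the longest annotated transcript as the length, Hk2 over Hk1 fell to 32.9, Eno3 over Eno1 to 78.7 and Pfkm over Pfkl to 643, Ldha over Ldhb rose to 13.4, and Pdk4 over Pdk2 turned to 0.755. The sizes of these ratios, and the order of Pdk4 and Pdk2, therefore depend on the length used.

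In 3 of the 9 pairs the ratio did not overlap between groups, and 2 of these contain Pfkp or Slc2a4, which did not overlap by themselves. No share over all genes exists for such ratios, and they are given as a description. Per AAV-GFP library Pfkm over Pfkp was 1536, 1567 and 1944, and per AAV-RBM20 library it was 1258, 1436 and 931. Per AAV-GFP library Pgam2 over Pgam1 was 379, 361 and 499, and per AAV-RBM20 library it was 353, 319 and 246. Per AAV-GFP library Slc2a4 over Slc2a1 was 53.8, 56.5 and 77.5, and per AAV-RBM20 library it was 48.5, 49.6 and 45.7. Each was lower in all AAV-RBM20 libraries, with mean log2 differences of -0.49, -0.43 and -0.37. Ldha over Ldhb was 31.7 in AAV-GFP replicate 3 and 8.15 to 10.6 in the other 5 libraries, so that library alone carried a high ratio. The isozymes that are not the main muscle form, Hk1, Pfkl, Pfkp, Eno1, Pgam1 and Ldhb, all had positive log2 fold changes (0.12 to 0.51), which turned their sign in no setting for Hk1, Pfkl, Pfkp, Eno1 and Pgam1 and in 2 for Ldhb. Of these only Pfkp was at an unadjusted p under 0.05.

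**Figure D4:**
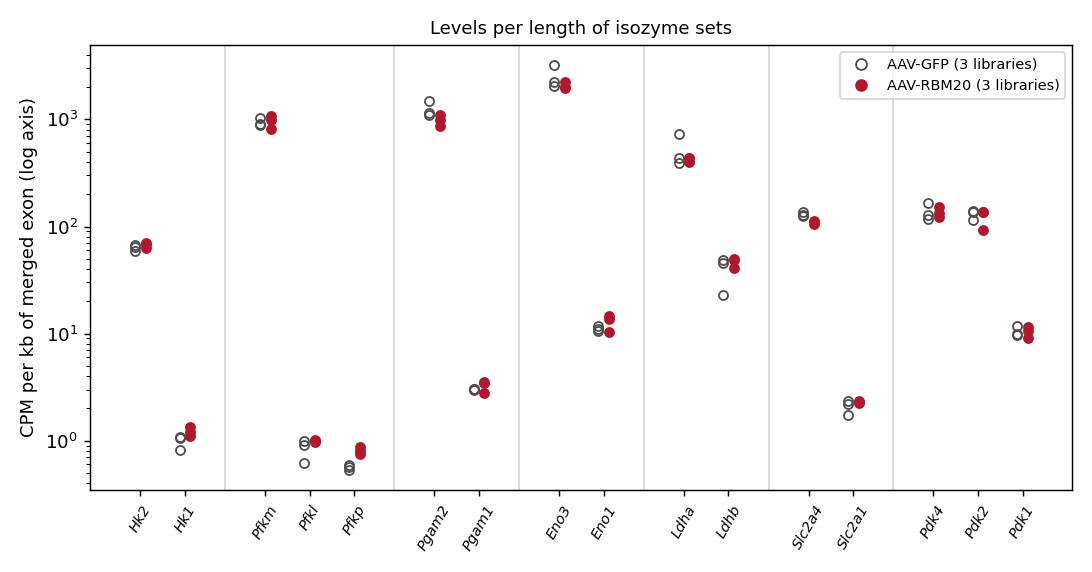
Level per length (CPM per kb of merged exon, log axis) of the isozyme sets in the 3 AAV-GFP libraries (open circles) and the 3 AAV-RBM20 libraries (filled circles). The muscle forms Hk2, Pfkm, Pgam2, Eno3 and Ldha lie above the other forms of their step in all 6 libraries, and the groups lie close beside this distance.

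The libraries numbered 3 lay together at one end in a share of members like that of all genes. In 8 of 43 (18.6%), namely Ldha, Slc16a1, Pdha1, Pdhb, Pdk1, Pdp1, Ugp2 and Ppp1r3a, both libraries numbered 3 lay above the other 4 libraries, and the same held for 19.5% of all genes tested. In another 8, namely Hk2, Pfkfb3, Eno1, Pdk2, Pdk4, Gys1, Pygm and Phkg1, both lay below the other 4, as for 19.4% of all genes. Pdp1 was at 149 and 133 CPM in the libraries numbered 3 and at 65.1 to 82.4 CPM in the others. Gys1 was at 346 and 352 CPM against 482 to 539 CPM. The labels do not say what a replicate number stands for, and its part in these differences was not tested.

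Of the other genes of these pathways, none passed the adjusted p in edgeR with or without the block. Those named here were at an unadjusted p under 0.05 in edgeR and were chosen after their values were seen. Among 16 tested genes of glycolysis outside the list, 5 were higher and 11 lower (median log2 fold change -0.27; 7 and 9 without both libraries numbered 3), and 1, Pfkfb4, was at an unadjusted p under 0.05, on the lower side. Of 21 tested genes of glycogen metabolism 5 were higher and 16 lower (median -0.15; 8 and 13 without both libraries numbered 3), with Pgm2 at the unadjusted p and higher. Of 5 genes of the pyruvate dehydrogenase complex 3 were higher (median 0.01), with the kinase gene Pdk3 at the unadjusted p and higher. Of 22 genes that link insulin and AMPK to glucose uptake 12 were higher and 10 lower (median 0.01), with Akt2 and Prkab2 at the unadjusted p, both lower. Of 10 genes of the pentose phosphate and hexosamine routes 3 were higher and 7 lower (median -0.14), with Gfpt1 at the unadjusted p, also lower.

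Of 13 genes of the clock's output 8 were higher and 5 lower (median log2 fold change 0.28), where 51.3% of all genes tested were higher. Per3 and Nfil3 passed the adjusted p with the replicate block, where 0.145% of all genes did. Per3, a period gene, had 18.5, 16.6 and 21.2 CPM in AAV-GFP and 41.2, 30.7 and 36.7 CPM in AAV-RBM20 (adjusted p = 0.0271 with the block, 0.405 without). Nfil3, a repressor of D-box genes, had 27.7, 36.7 and 21.6 CPM in AAV-GFP and 13.7, 21.7 and 11.8 CPM in AAV-RBM20 (adjusted p = 0.0271 with the block, 0.618 without). The groups of Per3 lay apart, and those of Nfil3 met at 21.6 CPM in AAV-GFP replicate 3 and 21.7 CPM in AAV-RBM20 replicate 2.

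Markers of fibre types and of other cells were counted as well, and none passed the adjusted p in edgeR without the block. The groups did not overlap in 5 fast fibre markers (lower) and 1 macrophage marker (higher). Of the regeneration and denervation genes, 5 were higher and 1 lower without overlap, against 7.71% and 9.04% of all genes tested. The groups of every slow fibre, fibroblast, endothelial, Schwann, adipocyte and erythroid marker tested overlapped. The fast fibre markers, Myh4 and Actn3 among them, which define a TA, were abundant and summed to 106649 to 114394 CPM in AAV-GFP and 68732 to 104103 CPM in AAV-RBM20, with 9 of 10 lower (median log2 fold change -0.54), and 7 of 10 were lower without both libraries numbered 3 (median -0.26). The list of slow and oxidative fibre genes had 8 of 10 higher, and 6 of 10 without both libraries numbered 3. In the pair numbered 2, 9 of the 10 were lower in AAV-RBM20, and in the pairs numbered 1 and 3 all 10 were higher. Its summed level, 90.4 to 677 CPM in AAV-GFP against 517 to 952 CPM in AAV-RBM20, was mostly Myh2 (35% of the sum in AAV-GFP replicate 3 and 79.3% to 85% in the others). Without Myh2 the sum was 58.8 to 116 CPM in AAV-GFP and 101 to 160.5 CPM in AAV-RBM20, and the slow myosin Myh7 was at 5.97 CPM or less in every library. All 8 macrophage markers were higher (median 1.07, with sums of 22.5 to 83.2 CPM in AAV-GFP and 55.9 to 152 CPM in AAV-RBM20). All 6 fibroblast markers (median 0.45) and all 6 endothelial markers (median 0.14) were higher too. Without both libraries numbered 3, all 8 macrophage (median 1.44) and all 6 fibroblast markers (median 0.76) were higher. The endothelial markers were then 3 higher and 3 lower (median -0.0002). Of the 10 regeneration and denervation genes tested, 7 were higher (median 0.48). Runx1 of this list and the macrophage genes Ctss and Ptprc passed the adjusted p with the replicate block, all higher. In that fit 0.145% of all genes passed. Of the adipocyte markers 4 of 6 could be tested, all lower, with sums of 0.295 to 14.4 CPM in AAV-GFP and 0.935 to 8.65 CPM in AAV-RBM20, and of the erythroid markers 3 of 6, with 2 higher. The 5 Schwann cell markers had a median of 0.04. The part of these cell and fibre markers in the differences between members was not tested.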

How the data were processed

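TA muscle was pulverised whole, and ribosomal RNA-depleted stranded libraries were sequenced. The authors used HISAT2 for alignment to mm10 and HTSeq for gene counts (versions, strand setting and annotation release not given in the sources used here). The deposited counts are whole numbers that the authors did not normalise. Their DESeq2-normalised table was not used here. Symbols and GRCm38 positions came from GENCODE M21 for 55141 identifiers, and 260 had none. Aldoa has a second identifier (19 to 57 counts per library), which was left out.

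Groups and replicate numbers were taken from the labels. edgeR 4.0.16 (R 4.3.3; filterByExpr, TMM, glmQLFit with robust estimation, glmQLFTest, no covariate) was run on all 6 libraries, with Benjamini-Hochberg adjustment over 17222 genes and a threshold of 0.05. The script was tested on simulated data. CPM used TMM-scaled library sizes. The SE is the absolute log2 fold change over the root of F. Alternatives (20 settings) covered normalisation, filters, DESeq2 1.42.0, limma-voom 3.58.1, a replicate block, length and GC trends, and left-out libraries. At 41400132 or more counts per library, the lowest value of any member was 215 counts, and replicates of a group differed by a chi-square per degree of freedom of 15.1 to 545, so none was a copy.

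Same-numbered libraries deviated together (correlation across genes 0.418, 0.201 and 0.484, all above the minimum of 0.1). The numbers of the titles were used as a block in alternative fits only. Differently numbered libraries exceeded the minimum in 2 cases (0.216 and 0.131). AAV-GFP replicate 2 correlated more with AAV-RBM20 replicate 1 (0.216) than with AAV-RBM20 replicate 2 (0.201). The check therefore cannot show that the numbers mark pairs. Per-library values are given for members at an unadjusted p under 0.05, or past the adjusted p with the block, and per-length levels for the 5 highest members and the isozyme sets. Per-library values of Tbc1d4, Slc2a4, Hk1, Dlat, Slc16a3, Phka1 and Eno1 were added after their values were seen. The members and lists were chosen with earlier results of these data known.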

Additional observations from a re-analysis of the deposited data

How the results depend on the processing

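The number of members past the adjusted p was 0 in the reported fit and in the alternatives except 3. It was 2 with DESeq2 and the replicate block (459 of all 17222 genes) and 2 without both libraries numbered 3 (690 of 17250). With the replicate block and length and GC trends removed it was 1 (153 of 17196). The number at an unadjusted p under 0.05 was reported as 3, beside 1360 of all 17222 genes. It was 5 with no filter on low counts (1735 of 29747 genes) and 6 with DESeq2 (1490 of 17222). With length and GC trends removed it was 6 (1932 of 17196), and with the replicate block 11 (3244 of 17222). It was 9 with the block and trends removed (3553 of 17196) and 13 with DESeq2 and the block (2354 of 17222). Without both libraries numbered 3 it was 12 (3196 of 17250). The number over all genes also rose in each of these settings. With no filter on low counts, however, 29747 genes were tested in place of 17222, and the share over all genes did not rise. Leaving out each library in turn gave 2 to 5 members, beside 675 to 2020 of all genes tested. Members whose groups did not overlap, reported as 9, numbered 11 to 17 with a library left out. They numbered 19 without both libraries numbered 2 or without both numbered 3. Fewer libraries overlap less often by construction, and the share of all genes was not computed for these settings. The median log2 fold change of the members stayed between -0.17 and 0.01. The signs of Pfkp, Fbp2 and Ppp1r3c held in all 20 alternatives, as those of 24 members did in total. Since the groups of Pfkp, Fbp2 and Ppp1r3c did not overlap, leaving out libraries could hardly turn their signs. Over the whole table the adjusted p was passed by 25 genes with the replicate block and 690 without both libraries numbered 3. The causes of these changes were not tested. With 3 libraries a group, and AAV-GFP replicate 3 apart from the others, the intervals of most members include differences in either direction.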
